A study of Mus musculus with 19 samples.

Results

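The 10 core circadian clock genes *Arntl* (also called *Bmal1*), *Clock*, *Per1*, *Per2*, *Per3*, *Cry1*, *Cry2*, *Nr1d1*, *Nr1d2* and *Dbp* were described in RNA-seq of mouse mammary glands and mammary tumors. They were chosen by name, and all 10 were found among the 46078 genes of the deposited table. In mammalian cells, ARNTL and CLOCK (or its paralog NPAS2) pair on E-box sequences and switch on the *Per* and *Cry* genes, whose proteins return to the nucleus and silence the pair. A second loop runs through NR1D1 and NR1D2 (REV-ERB alpha and beta), which repress *Arntl*, *Clock* and *Npas2*, while the ROR receptors activate them from the same sites. *Dbp* is a direct output whose protein, like those of its relatives *Tef* and *Hlf*, acts on D-box sequences, so that in a tissue with a running clock *Dbp* peaks when *Arntl* is low.

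The 19 samples were normal glands of wild type mice (MG-WT, n = 3), glands without malignant lesions from tumor-bearing *N* mice (MG-N, n = 4) and *NP* mice (MG-NP, n = 4), and tumors of *N* (T-N, n = 4) and *NP* mice (T-NP, n = 4). All *N* and *NP* animals carried MMTV-neu, a transgene that drives ERBB2 in mammary epithelium. *NP* animals also carried Fsp-Cre, a Cre transgene driven in fibroblasts, and the conditional p53wm-R172H/+ allele, which that Cre turns into mutant p53. The T-N tumors and MG-N replicate 1 came from MMTV-neu;Fsp-Cre animals, whereas MG-N replicates 2, 3 and 4 were MMTV-neu;p53wm-R172H/+ with no Cre, so that MG-N mixed genotypes with wild type p53. MG-WT mice had none of these alleles and were age-matched by the study's methods. The strain background was mixed, ages are not in the labels, and the hour of collection is not given in the sources used here. That hour bears on every value below, because clock genes change with time of day. T-NP replicates 1 and 2 have library names that share a number and may come from the same animal.

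The 3 MG-WT libraries held 54677315 to 62645459 reads on genes, and the other 16 held 20899152 to 27262440. A normalized count here is the number of reads on a gene divided by the size factor of its library, as the authors deposited it. Every clock gene was well above the floor in every library, the lowest value being 91 reads, for *Nr1d1* in MG-NP replicate 3. Per length, the median level over the 19 samples was highest for *Nr1d2*, at 770 normalized counts per kb of exon, followed by *Per1* with 379, and lowest for *Arntl* with 89.7. The order differed between groups. In MG-WT *Per1* had the highest mean, 1707 normalized counts per kb against 868 for *Nr1d2*, and in T-NP *Per3* had the lowest, 88.1 against 91.7 for *Arntl*.

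The MG-WT libraries stood apart from the other glands in more than clock genes. The summed normalized count of 9 white adipocyte genes was 4003 to 5441 in MG-WT, 300271 to 411034 in MG-N, 148248 to 388588 in MG-NP and 1594 to 9156 in tumors. The most abundant of them in MG-WT was *Pnpla2*, which many tissues express, and *Adipoq*, a defining fat cell gene, averaged 11.65 normalized counts there against 40920 in MG-N. Luminal epithelial genes (9 genes) summed to 82484 to 97613 in MG-WT, 9256 to 29199 in MG-N and MG-NP together, and 100371 to 184034 in tumors. All 9 white adipocyte genes were higher and all 9 luminal and all 5 basal epithelial genes lower in both MG-N and MG-NP than in MG-WT (limma, Benjamini-Hochberg adjusted p under 0.05). Of all genes, 30% were higher and 29.2% lower in MG-N. For MG-NP these shares were 22.4% and 24%. Of 6 fibroblast genes, 4 were higher in MG-N and 2 in MG-NP, and of 5 brown adipocyte genes 5 and 3. The libraries labelled MG-WT thus held little fat cell RNA for a mammary gland. How far tissue makeup contributes to the clock gene differences from MG-WT was not tested. A fit with a skeletal muscle covariate, given below for MG-NP, cannot decide it, because the muscle score did not overlap between MG-NP and MG-WT. In bulk tissue, fewer cells of a type and less RNA per cell cannot be told apart. Comparisons among the glands and tumors of *N* and *NP* mice do not use MG-WT and are given separately.

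*Per1* was the clock gene that set MG-WT most clearly apart. It lies at chr11:69095217-69109960 (GRCm38, GENCODE M21, as for the other genes), is an E-box target that also responds quickly to glucocorticoid and cAMP signals, and had 7650, 11742 and 9441 normalized counts in MG-WT. It had 1132, 3349, 1937 and 1371 normalized counts in MG-N. For MG-NP these were 2134, 2301, 2567 and 973.6. In tumors it had 919.1, 829.2, 1224 and 1466 in T-N and 2298, 2182, 1537 and 2677 in T-NP. Every MG-WT gland was above all 16 other samples, and in the order of group means (MG-WT, T-NP, MG-NP, MG-N, T-N) the step from MG-WT to T-NP was the only one between neighbours, over all 10 genes, at which the samples did not overlap. *Per2* (chr1:91415982-91459324), a further PERIOD repressor, had 2473, 3477 and 1895 normalized counts in MG-WT and ranged from 654.7 to 2387 in the other glands and from 109.6 to 1073 in tumors. A single tumor of each genotype was far below the rest for *Per2*, T-N replicate 2 at 109.6 and T-NP replicate 3 at 165.

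*Per3* (chr4:151003652-151044665), a PERIOD gene with a weaker role in keeping time, was not highest in MG-WT. It had 1618, 1615 and 844.3 normalized counts in MG-WT. The MG-N glands had 831.7, 3225, 3563 and 1656, and the MG-NP glands 2389, 1796, 1474 and 1832. In tumors it had 1991, 427.8, 1131 and 1488 in T-N and 800.5, 939.3, 480.6 and 1165 in T-NP. The glands of tumor-bearing mice held the highest values and the tumors the lowest, but of all pairs of groups only MG-NP and T-NP did not overlap.

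The cryptochromes *Cry1* (chr10:85131700-85185064) and *Cry2* (chr2:92403646-92434043) encode strong repressors of ARNTL and CLOCK. *Cry1* had 748.9, 1059 and 879.9 normalized counts in MG-WT. The MG-N glands had 602.5, 265.5, 285.5 and 265.7, and the MG-NP glands 455.9, 1072, 804.8 and 364.1. In tumors it had 369.2, 180.2, 245.4 and 368.8 in T-N and 531.4, 392.8, 588.4 and 237.2 in T-NP. MG-WT was above every MG-N, T-N and T-NP sample but shared its range with MG-NP. *Cry2* averaged 1883 ± 322.2 (SD, n = 3) normalized counts in MG-WT, 1340 ± 218.5 (n = 4) in MG-N, 1412 ± 441.8 in MG-NP, 1199 ± 608.7 in T-N and 702.7 ± 271.8 in T-NP. On its 6320 bases of exon, 295 are shared with an antisense gene, D930015M05Rik, that had a median of 2.4 normalized counts.

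**Figure D1:**
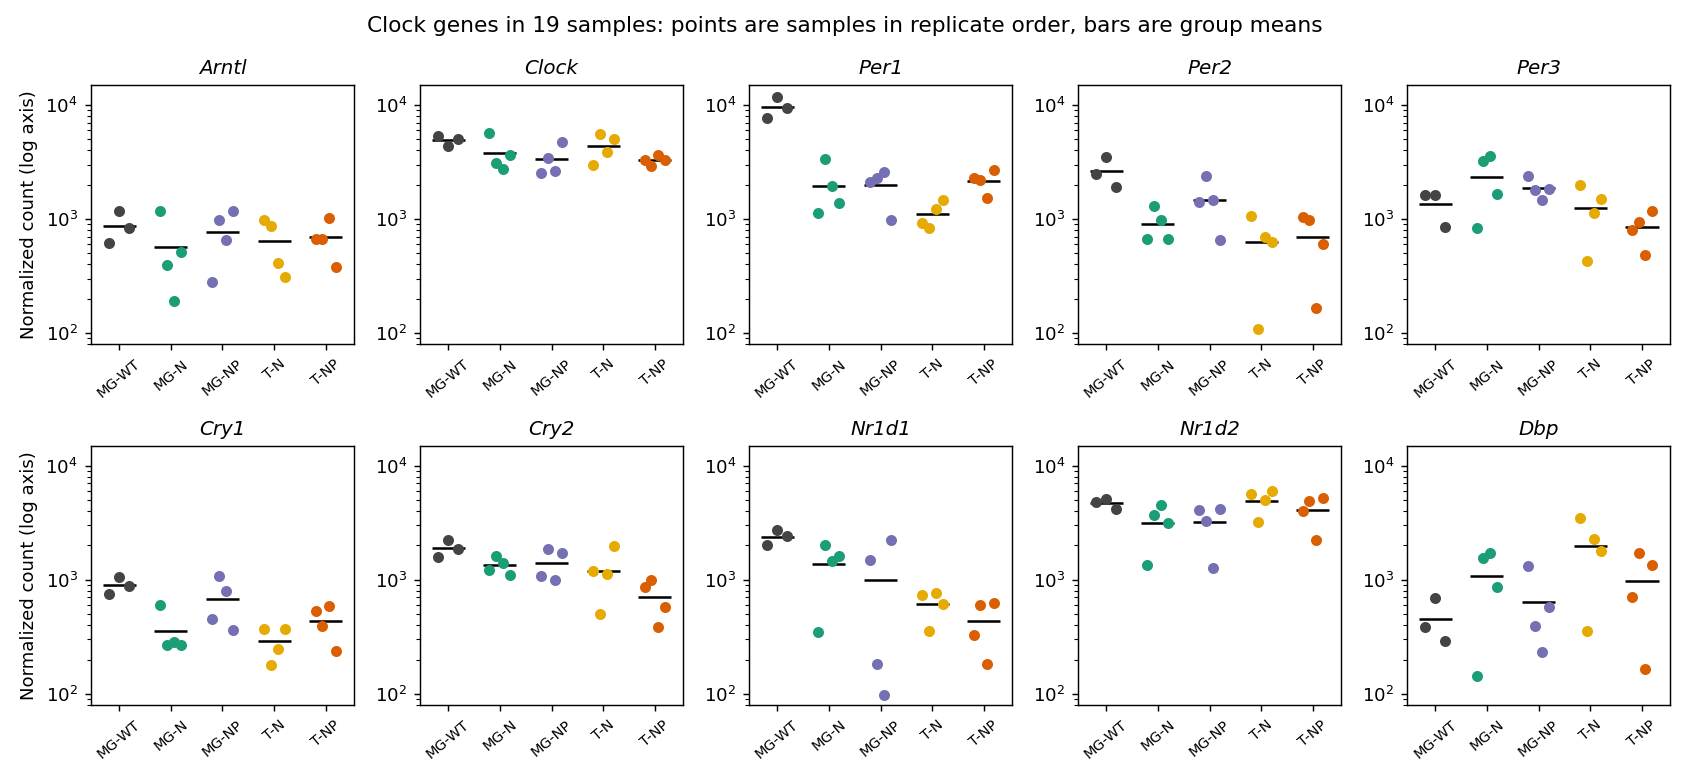
Normalized count (log axis) of each clock gene, with 1 point per sample in replicate order and a bar at the group mean, for MG-WT (n = 3) and the 4 other groups (n = 4 each). *Per1* in the 3 MG-WT glands, at 7650 to 11742, lies above all other samples, whereas *Dbp* and *Nr1d1* spread more than 5-fold within several groups.

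Of the nuclear receptors, *Nr1d1* (chr11:98767932-98775333) had 2012, 2760 and 2420 normalized counts in MG-WT. The MG-N glands had 351.5, 2025, 1464 and 1628, and the MG-NP glands 1490, 184.1, 98.56 and 2227. In tumors it had 733.9, 358.2, 767.5 and 617.4 in T-N and 328.5, 597.7, 181.8 and 630.5 in T-NP. All 8 tumors were under every MG-WT gland, while MG-NP spanned 22.6-fold, from below all tumors to within the MG-WT range. Without strand in the counting, whose use is not given in the sources used here, 263 exonic bases that *Nr1d1* shares with the opposite gene *Thra* could carry reads of either. *Nr1d2* (chr14:18204054-18239127) was steadier, from 1268 (MG-NP replicate 3) to 5958 (T-N replicate 4) normalized counts, with group means of 4696 in MG-WT, 3171 in MG-N, 3206 in MG-NP, 4948 in T-N and 4099 in T-NP, all overlapping.

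Of the activators, *Arntl* (chr7:113207465-113314126) had 616.2, 1182 and 827.8 normalized counts in MG-WT. The MG-N glands had 1168, 393.1, 191.6 and 519.1, and the MG-NP glands 282.3, 977.8, 653.1 and 1169. In tumors it had 982.8, 864, 415.1 and 312.8 in T-N and 674.9, 674.6, 1030 and 380.8 in T-NP. The range within MG-N, 6.1-fold, was nearly that of the whole series, 6.17-fold. *Clock* (chr5:76209868-76304792) moved the least of the 10 over the series, from 2552 to 5714 normalized counts or 2.24-fold.

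*Dbp* (chr7:45705088-45710203) had 386.4, 694.6 and 288.3 normalized counts in MG-WT. The MG-N glands had 142.7, 1561, 1720 and 858.9, and the MG-NP glands 1331, 395.4, 232.9 and 582.4. In tumors it had 3465, 353, 2276 and 1774 in T-N and 708.6, 1714, 165 and 1340 in T-NP. Low and high samples stood side by side in each group of tumor-bearing mice, so that no 2 neighbouring groups in the order of means were apart. *Dbp* shares 539 of its exonic bases (18%) with the antisense gene *Sphk2*, whose median was 944.3 normalized counts, so that its level is uncertain if strand was not used.

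The comparison with normal glands asked which clock genes differ in glands and tumors of MMTV-neu mice. In MG-N, 4 of 10 clock genes were lower than in MG-WT and 0 were higher (limma, as for all calls below), where 59.1% of 19017 genes tested changed, 29.2% lower and 30% higher. *Per1* was 5.31-fold lower (log2 fold change −2.41, SE 0.35, adjusted p = 0.000598, limma), *Per2* 2.91-fold (−1.54, SE 0.29, adjusted p = 0.0021), *Cry1* 2.67-fold (−1.42, SE 0.3, adjusted p = 0.00412) and *Cry2* 1.41-fold (−0.49, SE 0.17, adjusted p = 0.0327). The share of clock genes lower was thus 4 of 10 against 29.2% of all genes, and the median log2 fold change was −0.78 over the 10 and 0.02 over all genes tested. MG-N replicate 1, the MG-N gland whose genotype differs, had a strong hold on this result. Without it 8 clock genes passed, among them *Dbp* (log2 fold change 1.63, adjusted p = 0.00888) and *Per3* (1.04, adjusted p = 0.0431) as higher and *Arntl* (−1.31, adjusted p = 0.0251), *Clock* (−0.64, adjusted p = 0.00729) and *Nr1d1* (−0.49, adjusted p = 0.0416) as lower. For *Nr1d1* the difference with that gland was larger but uncalled (−1.06, adjusted p = 0.127). Without that gland *Cry2* no longer passed (adjusted p = 0.0703). *Cry2* was also lost without MG-N replicate 4 (0.0736) and without MG-WT replicate 2 (0.117) or 3 (0.0818).

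In MG-NP, 1 clock gene was lower than in MG-WT, where 46.4% of 19065 genes changed, 24% lower and 22.4% higher. *Per1* was 5.05-fold lower (log2 fold change −2.34, SE 0.35, adjusted p = 0.00191). With a skeletal muscle score as a covariate its difference was −1.37 (adjusted p = 0.286), *Nr1d2* passed instead (−2.86, adjusted p = 0.0277, against −0.69 and 0.202 without the covariate), and 1998 genes were called in place of 8853. Muscle genes had a sum of 13748 to 3144751 normalized counts over 14 genes in MG-NP and at most 32656 in any other sample. The score, the mean log2 value of these 14 genes, was 3.4 to 3.55 in MG-WT and 9.24 to 17.19 in MG-NP. With no overlap, the fit cannot tell the score from the group, and calls can be lost or gained whatever muscle contributes. The sum of 5 brown adipocyte genes was 82292 in MG-NP replicate 4, with *Ucp1* the most abundant, against at most 4913 in any other sample and 122 to 143.3 in MG-WT. *Nr1d1* was 4.78-fold lower on average, but the 95% confidence interval of its log2 fold change ran from −4.77 to 0.26 (adjusted p = 0.122). Without MG-NP replicate 4 it passed, as did *Clock*, and 3 clock genes were called. Without MG-NP replicate 2, *Per2* passed and 2 were called.

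In T-N, 4 clock genes were lower than in MG-WT, where 56.3% of 18236 genes changed, 30.6% lower and 25.7% higher. *Per1* was 8.75-fold lower (log2 fold change −3.13, SE 0.24, adjusted p = 6.85e-05), *Per2* 5.32-fold (−2.41, SE 0.71, adjusted p = 0.0209), *Cry1* 3.18-fold (−1.67, SE 0.29, adjusted p = 0.00216) and *Nr1d1* 4-fold (−2, SE 0.28, adjusted p = 0.000777). *Per2* did not pass without MG-WT replicate 1 (adjusted p = 0.0599) or 2 (adjusted p = 0.0786). *Dbp* was 3.49-fold higher on average without passing (log2 fold change 1.8, SE 0.73, adjusted p = 0.0661). Without T-N replicate 2 its difference was 2.5 (adjusted p = 0.00184), and it also passed with edgeR (2.17, adjusted p = 0.0303) and DESeq2 (2.13, adjusted p = 0.00271) on the recovered reads. *Cry2* passed as lower without T-N replicate 4 (−1.09, adjusted p = 0.0382, against −0.8 and 0.135 with it).

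In T-NP, 6 clock genes were lower than in MG-WT, where 69.7% of 18233 genes changed, 37% lower and 32.7% higher. These were *Nr1d1* (6.12-fold, log2 fold change −2.61, SE 0.4, adjusted p = 0.00048), *Per2* (4.48-fold, −2.16, SE 0.59, adjusted p = 0.0101), *Per1* (4.44-fold, −2.15, SE 0.21, adjusted p = 3.82e-05), *Cry2* (2.82-fold, −1.5, SE 0.31, adjusted p = 0.00231), *Cry1* (2.14-fold, −1.1, SE 0.3, adjusted p = 0.0104) and *Clock* (1.49-fold, −0.58, SE 0.12, adjusted p = 0.00211). Without T-NP replicate 3, *Dbp* passed as higher (1.46, adjusted p = 0.0117, against 0.76 and 0.381 with it), and *Per3* (−0.69, adjusted p = 0.0917) passed as lower without MG-WT replicate 3 (−1, adjusted p = 0.0299) or T-NP replicate 4 (−0.87, adjusted p = 0.0475). In each of the 6 called genes the samples did not overlap, as was so for 37.2% of all genes in this direction. Tissue makeup also differed from MG-WT in tumors. All 5 basal epithelial and all 5 endothelial genes were lower in T-N and in T-NP, beside 30.6% and 37% of all genes. Of 14 skeletal muscle genes, 8 were higher in T-NP, beside 32.7% of all genes. The 4 comparisons share the same 3 MG-WT glands, so that a gene low in all of them, such as *Per1*, rests on the same control values each time.

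**Figure D2:**
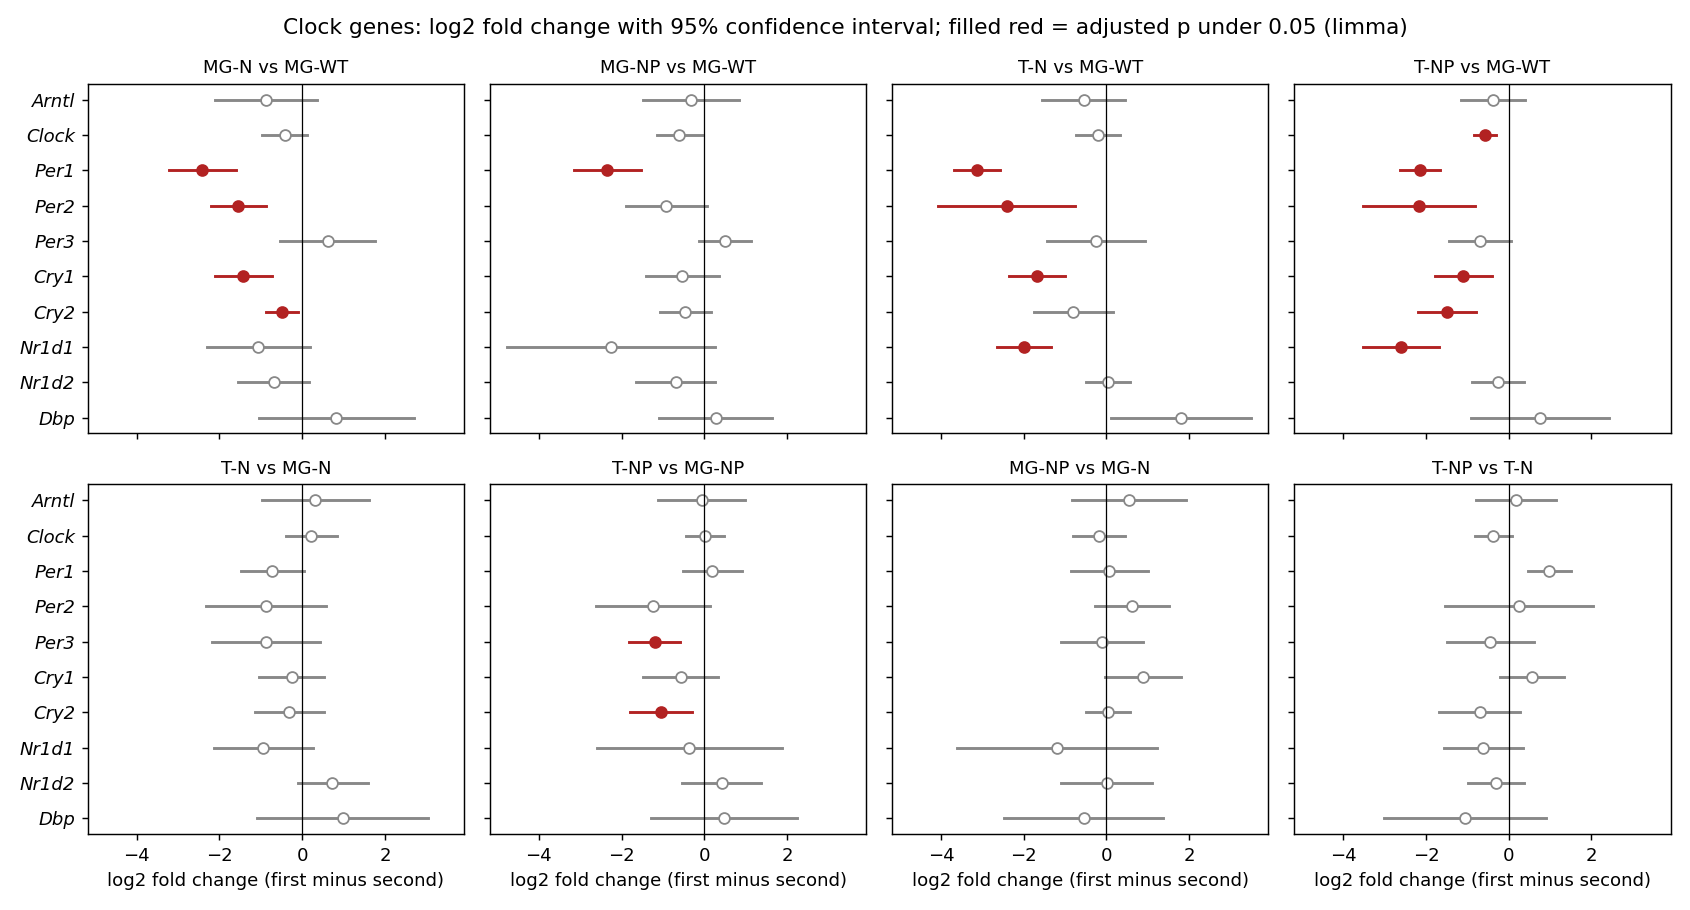
Log2 fold change of each clock gene (x axis, first group minus second) with its 95% confidence interval in 8 comparisons, filled red where the limma adjusted p is under 0.05. Red points are found in the 4 comparisons with MG-WT, 4, 1, 4 and 6 of them, and for *Per3* and *Cry2* in T-NP against MG-NP.

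*Per1* and other genes of rapid induction were high in MG-WT together. The summed normalized count of 20 immediate-early genes, such as *Fos*, *Jun* and *Egr1*, was 426293 to 578263 in MG-WT, whereas it lay between 8415 and 23897 over the 16 others, with *Fos* the most abundant in MG-WT and *Fosl2*, *Btg2*, *Jun* or *Ier3* elsewhere. All 20 were lower in MG-N, MG-NP and T-NP than in MG-WT, and 19 of 20 in T-N, with median log2 fold changes of −5.65, −5.18, −5.35 and −5.4. Their part in the *Per1* result was not tested. Among the 16 samples without MG-WT, these sums were 8415 to 15926 in MG-N and MG-NP and 19194 to 23897 in tumors, while *Per1* overlapped between glands and tumors. Of 5 glucocorticoid-inducible genes, against MG-WT, 1 was higher and 1 lower in MG-N, 2 and 1 in MG-NP, 1 and 2 in T-N, and 1 and 2 in T-NP, beside 59.1%, 46.4%, 56.3% and 69.7% of all genes called. In MG-N and MG-NP, *Tsc22d3* was higher (log2 fold changes 0.95 and 1.81) and *Sgk1* lower (−1.59 and −1.61), and *Fkbp5* was higher in MG-NP (0.98). In T-N and T-NP, *Fkbp5* was higher (0.83 and 1.94), while *Zbtb16* (−4.89 and −2.56) and *Klf9* (−1.3 and −0.91) were lower. Between T-NP and T-N none of the 5 passed (log2 fold changes of 0.38 to 2.33, adjusted p = 0.669 to 0.867), and their summed normalized counts overlapped, at 5761 to 14271 in T-N and 7584 to 25277 in T-NP.

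**Figure D3:**
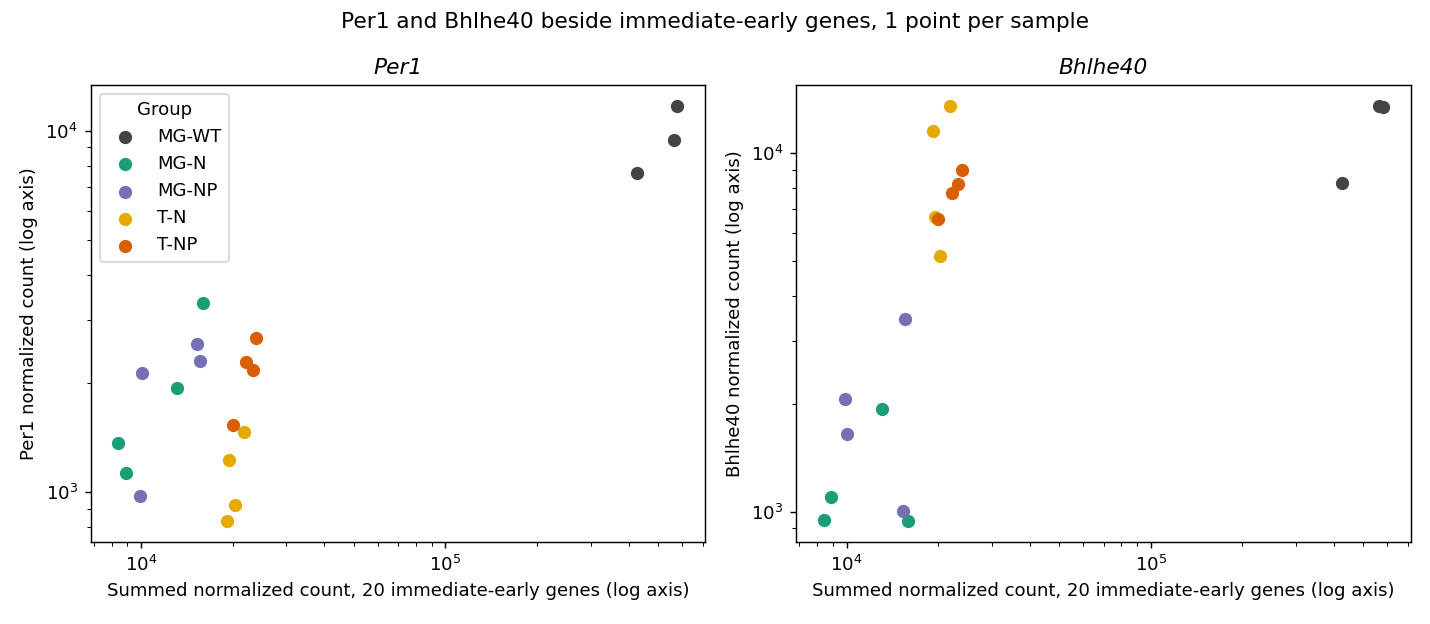
Normalized counts of *Per1* (left) and *Bhlhe40* (right) against the summed normalized count of 20 immediate-early genes, on log axes, with 1 point per sample colored by group. The 3 MG-WT glands lie at sums of 426293 to 578263, away from all others at 8415 to 23897, and *Bhlhe40* is as high in some tumors as in MG-WT, which *Per1* is not.

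Stretches are shown from the promoters of the clock genes called lower than MG-WT whose window held an E-box or its variant, because E-boxes are where ARNTL and CLOCK act. Windows of 250 bases before to 50 after each start site (RefSeq, GRCm38.p6) were searched on both strands for the E-box CACGTG, its variant CACGTT (E-prime box), the D-box TTANGTAA, the ROR and NR1D core TAGGTCA and the CRE TGACGTCA. Of the 10 genes, 9 had a window, the exception being *Per2*. *Per1* (chr11:69098743-69098832, plus strand) and *Cry1* (chr10:85185075-85185164, minus strand) held an E-box 166 and 60 bases before a start site. For *Per1* this start site is 1 of 2 with a window and lies inside the annotated gene, and the other window held none of the 5 motifs. *Cry1* also held an E-prime box, as did *Cry2* (chr2:92434186-92434275, minus strand) and *Nr1d1* (chr11:98775388-98775477, minus strand). Capitals mark these matches, and an E-prime box on the reverse strand reads AACGTG.
Per1: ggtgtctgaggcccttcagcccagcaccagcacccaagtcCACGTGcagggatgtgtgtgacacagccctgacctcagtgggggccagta
Cry1: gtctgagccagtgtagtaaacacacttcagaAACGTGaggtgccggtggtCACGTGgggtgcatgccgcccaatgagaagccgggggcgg
Cry2: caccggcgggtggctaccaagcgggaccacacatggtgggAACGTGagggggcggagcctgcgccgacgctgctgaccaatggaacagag
Nr1d1: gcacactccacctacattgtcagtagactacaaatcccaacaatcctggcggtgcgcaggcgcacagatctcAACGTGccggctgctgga

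Of all 32851 windows of this length, 7.15% held the E-box and 4.68% the E-prime box. *Arntl* held the ROR and NR1D core 31 bases after 1 of its 2 start sites, as did 2.61% of windows at some position. None of the windows of *Clock*, *Nr1d2* and *Dbp* held any of the 5 motifs, and the CRE was in none of the 9 genes. Such a match is a description of letters, not evidence of binding in these samples.

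The comparison of tumors with glands of *N* or of *NP* mice left out MG-WT. All T-NP and MG-NP samples had the same genotype, whereas of the MG-N glands only replicate 1 had that of the T-N tumors. In T-N against MG-N, 0 of 10 clock genes passed with limma, where 51.3% of 17950 genes changed, 27.8% lower and 23.5% higher. At an unadjusted p under 0.05 the count was also 0, edgeR called 0 and DESeq2 called 1, *Nr1d1* (log2 fold change −1.13, adjusted p = 0.0428). Without MG-N replicate 1, *Nr1d1* passed with limma too (−1.51, adjusted p = 0.00493). In T-NP against MG-NP, 2 were lower and 0 higher, where 55.5% of 17880 genes changed, 29.3% lower and 26.2% higher. *Per3* was 2.29-fold lower (log2 fold change −1.19, SE 0.27, adjusted p = 0.00582), with all 4 tumors under all 4 glands, as for 27.4% of all genes in this direction. *Cry2* was 2.06-fold lower (−1.04, SE 0.33, adjusted p = 0.0256) with overlapping samples, and leaving out any of MG-NP replicate 2 or 4 or T-NP replicate 3 or 4 gave adjusted p-values of 0.0557 to 0.0658. With the skeletal muscle score as a covariate neither passed (*Per3* −1.03, adjusted p = 0.148, and *Cry2* −0.86, adjusted p = 0.306). The same fit called 4749 of all genes in place of 9929. The score was 9.24 to 17.19 in MG-NP and 3.41 to 8.56 in T-NP, with no overlap. The fit therefore cannot tell muscle from group, and the part of muscle in these 2 calls was not tested. Tissue makeup differed in the same comparison, with all 9 white adipocyte and all 14 skeletal muscle genes lower in T-NP than in MG-NP and 8 of 9 luminal genes higher. The tumor against gland differences of *N* and *NP* mice were not shown to differ for any clock gene, the interaction calling 0 of 10 and 0% of 19367 genes, with 0 clock genes at an unadjusted p under 0.05 and 0 by edgeR or DESeq2. Over all genes edgeR also called 0 but DESeq2 368, and limma called 195 without MG-NP replicate 3, 2 without MG-NP replicate 4 and 23 without T-N replicate 1.

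The comparison of *NP* with *N* mice set animals with mutant p53 in fibroblasts beside animals without it. The glands also differed in Cre, which MG-N replicates 2, 3 and 4 lacked. Their summed muscle genes were 707.5 to 19557 normalized counts in MG-N and 13748 to 3144751 in MG-NP, though none of the 14 was called. In glands these differences cannot be told apart from mutant p53. Between MG-NP and MG-N, 0 of 10 passed and 0% of 18563 genes did, with 0 clock genes at an unadjusted p under 0.05 and 0 by edgeR or DESeq2. That share of all genes depended on tool and library, DESeq2 calling 730 genes and edgeR 0, and limma 326 without MG-NP replicate 3 and 17 with all 5 groups in a single fit. The intervals were wide, the log2 fold change of *Cry1* being 0.89 (95% confidence interval −0.03 to 1.81) and that of *Nr1d1* −1.2 (−3.62 to 1.22). Between T-NP and T-N, limma called 0 of 10 and 7 of 16638 genes (0.0421%), a number that was 59 without T-N replicate 1 and 0 without any other single tumor. *Per1* alone had an unadjusted p under 0.05. It was 1.97-fold higher in T-NP (log2 fold change 0.98, 95% confidence interval 0.46 to 1.5, adjusted p = 0.568), and all 4 T-NP tumors, at 1537 to 2677 normalized counts, were above all 4 T-N tumors, at 829.2 to 1466. Such separation was found for 4.21% of all genes, 2.64% in this direction. Only DESeq2 called *Per1* (0.96, adjusted p = 0.043), among 120 genes, while edgeR called 0 of 10 clock genes. *Clock*, with the narrowest interval of the other members, differed by −0.37 (−0.82 to 0.08).

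Samples of a single group differed widely in clock genes. The SD of log2 normalized counts around the group means, pooled over the groups, had a median of 0.67 over the 10 clock genes and of 0.46 over 20392 genes, and 9 of 10 clock genes were above the latter. *Dbp* (1.35, a typical spread of 2.55-fold) exceeded 94.5% of genes, *Nr1d1* (1.24) 92.6%, *Per2* (0.99) 85.7% and *Arntl* (0.82) 77.8%, while *Clock* (0.35) exceeded 37.2%. The spread was narrow in MG-WT, with medians of 0.28 over clock genes and 0.23 over all genes, and wider elsewhere. The same medians were 0.73 and 0.31 in MG-N, 0.74 and 0.42 in MG-NP, 0.65 and 0.49 in T-N, and 0.59 and 0.33 in T-NP. In MG-N the spread also takes in the genotype difference between replicate 1 and the other glands.

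In a tissue with a running clock, the difference of log2 *Dbp* and log2 *Arntl* is a rough index of phase, because the 2 genes then run in opposite phases. Its zero has no meaning with genes of unequal length. In these samples the negative correlation of the 2 genes within groups, given below, did not pass. A difference of phase cannot be told here from a difference in level between tissues. The 3 MG-WT glands gave −0.67, −0.77 and −1.52. The MG-N glands, in replicate order, gave −3.02, 1.99, 3.16 and 0.73, and those of MG-NP gave 2.23, −1.3, −1.48 and −1. Values of the T-N tumors were 1.82, −1.29, 2.45 and 2.5, and T-NP tumors had 0.07, 1.34, −2.64 and 1.81. Only MG-N replicate 1 and T-NP replicate 3 lay below the MG-WT range, MG-NP replicates 2, 3 and 4 and T-N replicate 2 lay within it, and the 10 other samples lay above it.

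**Figure D4:**
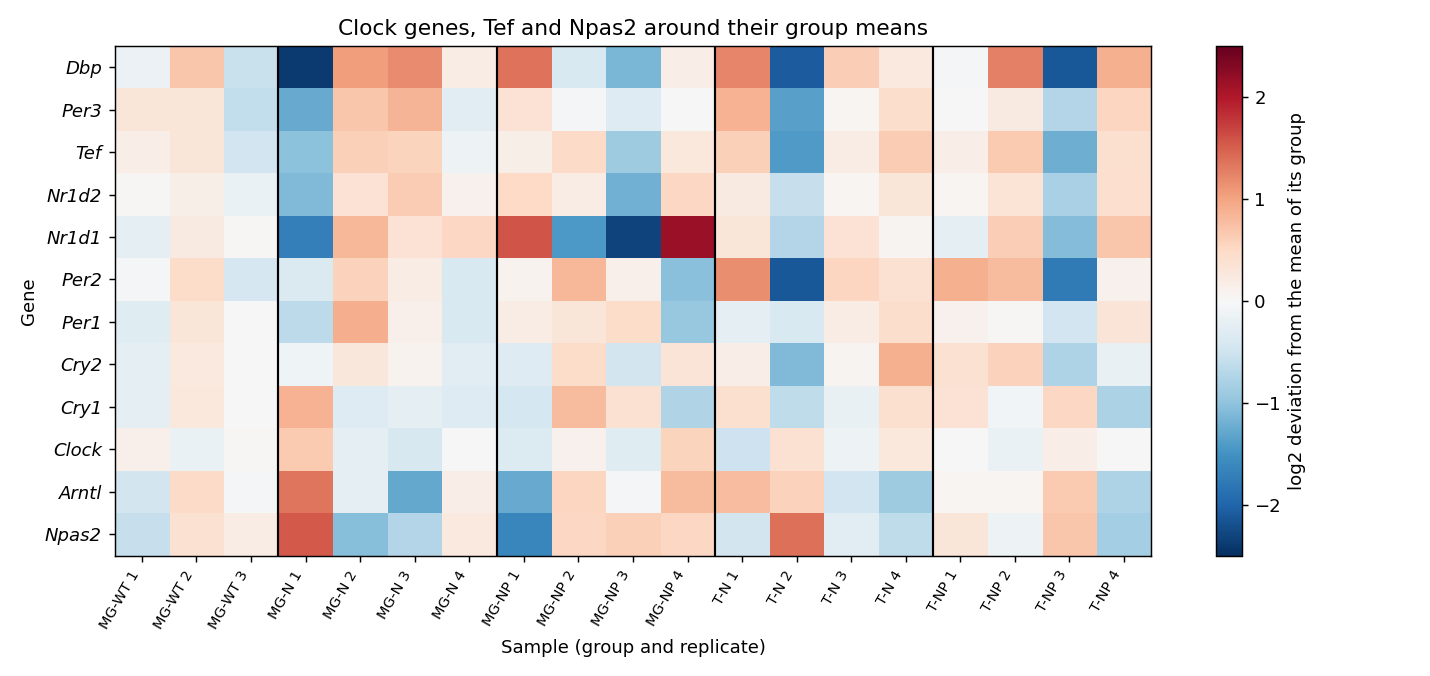
Log2 deviation of the 10 clock genes, *Tef* and *Npas2* (rows) from the mean of their group in each of the 19 samples (columns), red above and blue below the mean. MG-N replicate 1, T-N replicate 2 and T-NP replicate 3 are blue for *Dbp*, *Per3*, *Tef*, *Nr1d2* and *Nr1d1* and red for *Arntl* and *Npas2*, and no MG-WT gland deviates by more than 0.7.

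Some pairs of clock genes varied together from sample to sample within groups, while others ran opposite or did not pass. After removal of group means, over 18 samples (T-NP replicates 1 and 2 averaged), 11 of 45 pairs passed a two-sided permutation test of Pearson's r within groups after adjustment over the 45 pairs, 8 positive and 3 negative, and 7 of the 11 also passed for Spearman's rho. No pair with *Arntl*, *Cry1* or *Cry2* passed. The share of pairs that would pass among other genes was not tested, so this count has no background. The mean of MG-N was removed over both of its genotypes, so any difference between them remains in these correlations. The strongest was *Per3* with *Dbp* (r = 0.92, permutation adjusted p = 0.00112, raw p = 5e-05, rho = 0.9, adjusted p = 0.0009). Without the 2 samples farthest from the median of *Per3*, r was 0.84. *Nr1d2* varied with *Dbp* (r = 0.88, permutation adjusted p = 0.0021, rho = 0.8), with *Nr1d1* (r = 0.83, adjusted p = 0.00922, rho = 0.8) and with *Per3* (r = 0.79, adjusted p = 0.00112, rho = 0.76). *Nr1d1* with *Dbp* gave r = 0.73 (permutation adjusted p = 0.0104, rho = 0.75) and *Per3* with *Nr1d1* r = 0.54 (adjusted p = 0.0193, rho = 0.58). Leaving out the 2 farthest samples left r between 0.41 and 0.89 in these pairs.

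*Per2* went with *Per3* (r = 0.72, permutation adjusted p = 0.0252, rho = 0.65) and with *Per1* (r = 0.61, adjusted p = 0.0284, rho = 0.62), though neither passed for rho (adjusted p = 0.0641 for both), and without T-N replicate 2 and T-NP replicate 3 the r of *Per2* and *Per3* was 0.52. *Clock* ran opposite to *Dbp* (r = −0.66, permutation adjusted p = 0.0475, rho = −0.75), *Per3* (r = −0.66, adjusted p = 0.04, rho = −0.63) and *Per2* (r = −0.6, adjusted p = 0.0388, rho = −0.58), of which only the pair with *Dbp* passed for rho (adjusted p = 0.0169, and 0.0641 for the others), and without the 2 farthest samples these were −0.65, −0.64 and −0.58. *Arntl* with *Dbp* had r = −0.6 and rho = −0.54 (permutation adjusted p = 0.0969 and 0.138), and *Cry1* with *Nr1d1* r = −0.71 and rho = −0.71 (adjusted p = 0.0859 and 0.0641), which did not pass. The count was 13 of 45 over all 19 samples, 9 without MG-WT and 11 with TMM scaling.

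**Figure D5:**
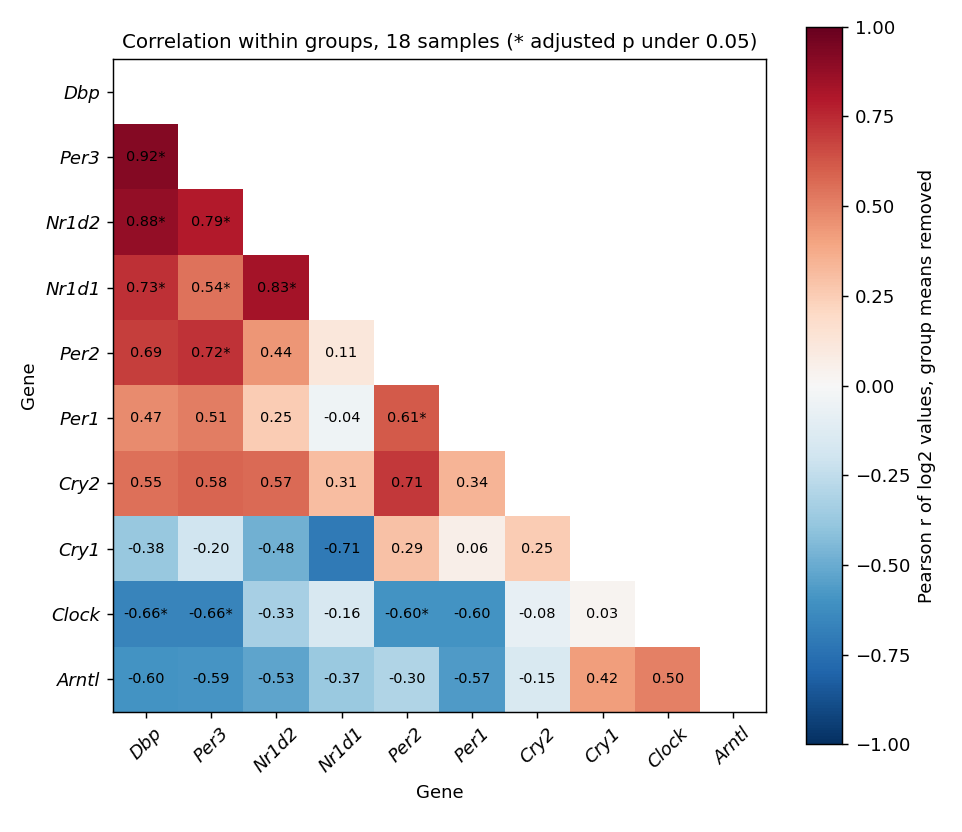
Pearson r (color and number) of each pair of clock genes over 18 samples after removal of group means, with a star where the permutation p adjusted over 45 pairs is under 0.05. *Dbp*, *Per3*, *Nr1d2* and *Nr1d1* form a block with r from 0.54 to 0.92, and *Arntl* and *Clock* are negative to it, from −0.16 to −0.66.

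*Per3* is the member whose promoter holds the D-box, the site of DBP, TEF and HLF, and it is shown beside its correlation with *Dbp*. The stretch chr4:151044766-151044885 (GRCm38.p6, minus strand, RefSeq) has D-boxes 205 and 158 bases before the start, in capitals. Of all windows, 2.32% held this motif, and no other clock gene among the 9 did.
Per3: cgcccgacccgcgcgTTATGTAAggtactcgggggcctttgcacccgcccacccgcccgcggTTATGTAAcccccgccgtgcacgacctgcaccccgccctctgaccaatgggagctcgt

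After removal of group means, the 3 genes most like *Dbp* among those compared were clock genes. Among 13792 genes with at least 10 normalized counts in all 19 samples, *Per3* (r = 0.91), *Tef* (0.9) and *Nr1d2* (0.88) came first, followed by *Zfp787* (0.76) and *Tns2* (0.76), and *Npas2*, the paralog of *Clock*, was the lowest of all (−0.83), a gene singled out after its values were seen. For *Arntl* the 5 highest were *C9orf72* (0.86), *Npas2* (0.82), *Cpped1* (0.8), *Gm37570* (0.79) and *Gm38387* (0.78). These values come from the same 19 libraries for every gene, which differ in depth and, within MG-N, in genotype, and carry no p. *Npas2* had 444.5 normalized counts in MG-N replicate 1 against 72.41, 91.09 and 180.2 in the other MG-N glands, and 343.5 in T-N replicate 2 against 95.44, 109.1 and 84.03 in the other T-N tumors. *Tef* showed the reverse, with 1913 against 5905, 5750 and 3614 in MG-N, and 1482 against 5922, 4478 and 6144 in T-N. The samples that were low in *Dbp* were thus high in *Npas2* and low in *Tef* in both groups.

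Around the core loop, 28 further clock genes were listed by role, 27 of them tested in the comparisons of T-N or T-NP with MG-WT and of T-NP with T-N. Against MG-WT, 4 were higher and 14 lower in MG-N, 5 and 9 in MG-NP, 3 and 9 in T-N, and 3 and 15 in T-NP. The called numbers, 18 of 28, 14 of 28, 12 of 27 and 18 of 27, stand beside 59.1%, 46.4%, 56.3% and 69.7% of all genes called. Against MG-N and MG-NP respectively, 5 were higher and 6 lower in T-N, and 5 and 7 in T-NP, beside 51.3% and 55.5% of all genes called. None passed between MG-NP and MG-N or between T-NP and T-N with limma, where unadjusted p was under 0.05 for 4 and 2, edgeR called 0 and 0, and DESeq2 2 and 0. Among the 7 kinase and ubiquitin genes, which set the stability of PER and CRY proteins, 6 were lower in MG-N, 3 in MG-NP, 4 in T-N and 6 in T-NP than in MG-WT and 0 were higher, beside 29.2%, 24%, 30.6% and 37% of all genes lower. Their median log2 fold changes were −0.63, −0.38, −0.79 and −0.69, against 0.02, 0.02, −0.09 and −0.08 over all genes. *Usp2*, a deubiquitinase, had log2 fold changes of −2.51 in MG-N, −2.63 in T-N and −1.42 in T-NP but was not called in MG-NP (−0.24, adjusted p = 0.821), and the casein kinase gene *Csnk1d* had −0.89 in MG-N, −0.88 in MG-NP, −0.5 in T-N and −0.42 in T-NP.

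The E-box repressors *Bhlhe40* and *Bhlhe41* (DEC1 and DEC2) were both lower in MG-N and MG-NP than in MG-WT, but parted in tumors. *Bhlhe40* had 8243, 13420 and 13574 normalized counts in MG-WT, 939 to 1929 in MG-N and 1004 to 3440 in MG-NP, log2 fold changes of −3.29 (adjusted p = 4.68e-05) and −2.63 (adjusted p = 0.0022). In tumors it was 5184 to 13510 in T-N and 6567 to 8996 in T-NP, the latter lower than MG-WT (−0.55, adjusted p = 0.0341) with overlapping samples and the former not called (−0.42, adjusted p = 0.353). Both were higher than in the glands by 2.87 (adjusted p = 0.000364) and 2.08 (adjusted p = 0.00092). *Bhlhe41* averaged 8723 ± 742.8 (SD, n = 3) in MG-WT and was lower in MG-N (−2.76) and MG-NP (−2.64), and in tumors, at 505 ± 219.5 in T-N and 1210 ± 962.3 in T-NP (n = 4 each), which was −4.2 (adjusted p = 5.23e-05) and −3.19 (adjusted p = 0.000754) against MG-WT on the log2 scale. *Bhlhe41* was also lower in T-N than in MG-N (−1.43, adjusted p = 0.00615), but was not called between T-NP and MG-NP (−0.55, adjusted p = 0.389). Of the other 3 modulators, *Ciart*, *Cipc* and *Timeless*, none passed with limma in any comparison.

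Of the D-box factors, *Hlf* was lower in MG-N (log2 fold change −0.61) and MG-NP (−0.94) than in MG-WT and higher in tumors than in glands (1.77 in *N*, adjusted p = 0.000535, and 1.55 in *NP*, adjusted p = 0.00126). Against MG-WT, *Hlf* was also higher in T-N (1.17) and T-NP (0.61). *Tef* was higher in MG-NP than in MG-WT (1.18, adjusted p = 0.0279). *Nfil3*, the repressor at D-boxes, was lower than in MG-WT in MG-N (−2.48), T-N (−2.59) and T-NP (−3.27), and in T-NP than in MG-NP (−2.07). Of the activator paralogs and ROR receptors, *Npas2* was lower in T-N (−1.43) and T-NP (−1.25) than in MG-WT and *Arntl2* in MG-N (−1.09), MG-NP (−1.41) and T-NP (−1.22). *Rorb*, which averaged only 8.374 normalized counts in MG-WT and at most 66.87 elsewhere, was higher in MG-N (2.87) and MG-NP (2.5) than in MG-WT and lower in tumors than in glands (−2.12 and −2.96).

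Output genes went both ways. *Wee1*, a cell cycle kinase gene with E-boxes, was lower than in MG-WT in both gland groups (−2.13 in *N* and −2.17 in *NP* mice) and both tumor groups (−0.83 and −0.8), and higher in tumors than in glands (1.3 and 1.37). *Coq10b* was lower than in MG-WT in all 4 groups (−2.29, −2.25, −3.16 and −2.86). *Por* and *Alas1*, genes of electron transfer to cytochromes P450 and of heme synthesis that fat also expresses, were higher in MG-N (1.68 and 1.66) and MG-NP (1.07 and 1.85) than in MG-WT, and *Por* was lower in tumors than in glands (−2.2 and −1.64). *Alas1* was lower in T-N than in MG-N (−1.17) and in T-NP than in MG-NP (−0.91). Of the rest, *Nampt* was higher in MG-NP than in MG-WT (1.09), *Dtx4* lower in T-NP than in MG-WT (−1.16), and *Lonrf3* lower in MG-N than in MG-WT (−1.64) and higher in T-N than in MG-WT (1.06) and in tumors than in glands (2.7 and 1.82). *Fbxl21*, of the ubiquitin genes, was lower in T-NP than in MG-WT (−2.16) and in tumors than in glands (−1.64 and −2.1). Its counts were low, averaging 9.322 in T-NP, 20.55 in T-N and at most 60.6 in any group. It is counted above among the kinase and ubiquitin genes lower in T-NP. *Fbxw11* was lower in MG-N (−1.07) and MG-NP (−1) than in MG-WT, and *Btrc* in T-NP than in MG-WT (−1.05).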

How the data were processed

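Per the labels and the study's methods, reads were aligned to GRCm38 (mm10) with TopHat2 (2.1.1) and Bowtie2. The counting tool, annotation and use of strand are not given in the sources used here, and the sources name different library kits (total RNA in the labels, mRNA in the methods). The signal deposited by the authors is normalized counts, that is read counts divided by a DESeq2 size factor per library. Reads were recovered from their steps (100% of values whole within 0.05 reads), and 0 columns were left out.

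Symbols and positions came from GENCODE M21, which matched 97.97% of identifiers. Log2(normalized count + 1) was fitted with limma 3.58.1 (trend) in the groups compared, for genes with at least 10 normalized counts in as many samples as the smaller group, with Benjamini-Hochberg adjustment over all genes tested, and called at adjusted p under 0.05. Fold changes are on the log2(value + 1) scale. The fit was tested on simulated data. Replicates of a group differed beyond sampling noise. Correlations used 100000 permutations within groups. edgeR 4.0.16 and DESeq2 1.42.0 were run on recovered reads as alternatives, beside other pseudocounts, filters, TMM, all 5 groups in a single fit, a 2-fold threshold, a replicate block, a skeletal muscle covariate, averaged T-NP replicates 1 and 2, and each sample left out. All members were named, other clock genes where called at 2-fold or more, and the 5 genes most like *Arntl* and *Dbp*. Members and lists were chosen with earlier results of these data known. p-values measure the spread between these samples.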

Additional observations from a re-analysis of the deposited data

Results flagged for a closer look

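Of 44 sets of 4 samples examined for a single sample far from the rest, 2 stood out, and chance gives about 1 in 20. *Cry1* in MG-N replicate 1 was 602.5 normalized counts against 265.5 to 285.5 in the other MG-N glands, a gap of 0.911 of the range of the group. The difference of log2 *Dbp* and log2 *Arntl* was 2.23 in MG-NP replicate 1 and −1.48 to −1 in the other MG-NP glands, a gap of 0.871 of the range. MG-N replicate 1 is the MG-N gland of genotype MMTV-neu;Fsp-Cre, and whether genotype or hour of collection has a part in its values was not tested.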

How the results depend on the processing

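No clock gene reversed its direction past the threshold under any alternative, and of the log2 fold changes of single clock genes under the alternatives 1696 kept their side of the threshold, 24 newly passed it and 20 lost it. With all 5 groups in a single fit, the calls against MG-WT of *Per2* (adjusted p = 0.0738) and *Cry2* (0.304) in MG-N, *Nr1d1* in T-N (0.0531) and *Clock* in T-NP (0.059) were lost. The number of clock genes called moved as follows. Against MG-WT it was 4 in MG-N, 2 with all 5 groups in a single fit and 3 to 8 with a sample left out. In MG-NP it was 1, 2 with all 5 groups, 3 with the replicate block and 1 to 3 with a sample left out. For T-N against MG-N it was 0, 1 with DESeq2 and 0 to 1 with a sample left out, for T-NP against MG-NP 2, 0 with the skeletal muscle score as a covariate and 1 to 2 with a sample left out, and for T-NP against T-N 0, 1 with DESeq2. In MG-WT comparisons of tumors, leaving out a sample gave 3 to 5 (T-N) and 6 to 7 (T-NP). Of the 28 other clock genes, the call counts against MG-WT were 6 in MG-NP with the muscle covariate (14 otherwise), 7 in T-N (12 otherwise) at 2-fold or more and 7 to 14 with a sample left out, and in T-NP (18 otherwise) 9 at 2-fold or more and 11 with all 5 groups. They were 5 in T-NP against MG-NP with the muscle covariate (12 otherwise), and 2 in MG-NP against MG-N with DESeq2 (0 otherwise). Where not shown above by the sample left out, the cause was not tested. Same-numbered samples of different groups did not deviate together (36 pairs, r −0.26 to 0.28, 1 above 0.1). Differently numbered pairs were not set beside them, so this cannot exclude that the numbers pair samples. The block took *Per2* in T-N to an adjusted p of 0.0525 and gave, against MG-WT, 5 clock genes in MG-N, 3 in MG-NP, 3 in T-N and 7 in T-NP, with 0 in T-N against MG-N and 2 in T-NP against MG-NP. Median spread of the clock genes was 0.67 with pseudocount 5 (0.4 over all genes), 0.7 without MG-WT (0.48), and 0.67 for genes at a mean of 50 or more (0.35), an alternative chosen after seeing the data. Groups of 3 and 4 leave wide intervals for *Dbp*, *Nr1d1* and *Per2*, and the hour of collection, tissue makeup and group cannot be told apart here.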
